A study of Mus musculus with 6 samples.

Results

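Delta cells are the somatostatin cells of the pancreatic islet. Somatostatin, encoded by Sst, is released inside the islet and restrains its neighbours, the insulin-secreting beta cells and the glucagon-secreting alpha cells, through somatostatin receptors. The transcription factor Hhex is needed to keep the delta cell state, and Rbp4, which encodes the plasma carrier of retinol, is a common marker of mouse delta cells. Epsilon cells make ghrelin (Ghrl), for which delta cells carry the receptor Ghsr. Sox9 is a transcription factor of pancreatic duct and progenitor cells. In a mouse with a tamoxifen-inducible Cre recombinase driven by Sox9, a tdTomato reporter labels cells in which Sox9 was active at the time of tamoxifen, and the cells that descend from them.

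The delta wells of tomato-positive plates were compared with those of tomato-negative plates. A delta well was a well with at least 0.73% of its UMIs (unique molecular identifiers, 1 per captured transcript) from Sst, under 3.3% from the insulin genes Ins1 and Ins2 together and under 2.3% from Gcg, which encodes glucagon. By this rule 476 of the 1762 wells that passed the filters on the 5 plates were delta wells, 436 of them on tomato-positive and 40 on tomato-negative plates. The whole series held 2304 wells on 6 plates, of which 2115 passed.

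All groups were male Sox9-CreER; tdTomato mice, given tamoxifen (8 mg over 2 weeks) from an age of 10 weeks and operated on at 12 weeks. Islets were isolated after a recovery of 4 weeks, dissociated, sorted into plates of 384 wells and profiled by MARS-seq, which counts transcripts at their 3′ ends. The tomato-positive plates were 1 sham plate (Sham 1) and 1 plate after partial pancreatectomy, or ppx (ppx 1), an operation that takes out a portion of the organ. The tomato-negative plates were 1 sham plate (Sham 3) and 2 ppx plates (ppx2 and ppx3). Sham 2 mixed both kinds of well and entered no comparison. The labels do not tie plates to mice, so the plate was the replicate, and the spread between plates may be technical. Tomato status thus had 2 plates against 3, and the smallest p that an exact permutation test can give for that design is 0.1.

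The 5 plates held between 1250861 and 1508513 UMIs each, and no well barcode was shared between plates. Sst, Ins1, Ins2 and Gcg chose the wells, so their values are given as a description without a test.

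Delta wells made up most of the tomato-positive plates and few wells of the tomato-negative ones. They were 212 of 355 wells on the tomato-positive sham plate (59.7%) and 224 of 356 on the tomato-positive ppx plate (62.9%). On the tomato-negative plates they were 19 of 339 wells on the sham plate (5.60%), 9 of 362 on ppx2 (2.49%) and 12 of 350 on ppx3 (3.43%). The mean share was 61.3% ± 2.26 (SD, n = 2) against 3.84% ± 1.60 (SD, n = 3), with no overlap between the plates, and p = 0.1 in a two-sided exact permutation test. The sort itself set which cells entered each plate, so these shares describe sorted wells and not the islet.

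The summed delta wells therefore differed in size. The tomato-positive sums held 375618 and 403939 UMIs, and the tomato-negative sums held 36364, 16774 and 34630. Per delta well, the tomato-positive plates were the shallower ones: the median delta well had 1504.5 and 1591.5 UMIs there, against 1975, 1886 and 2008.5 on the tomato-negative plates. The difference of the log2 medians was -0.34, again without overlap (two-sided exact permutation p = 0.1). The median number of genes per delta well was 808 and 808.5 against 918, 803 and 895, which overlapped (two-sided exact permutation p = 0.4). Mitochondrial transcripts took a median of 11.2% and 13.4% of UMIs against 11.0%, 10.9% and 11.7% (two-sided exact permutation p = 0.3).

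A single well carried much of 1 tomato-negative sum. It was the deepest delta well of ppx3, with 12729 UMIs or 36.8% of that plate's delta UMIs. Pancreatic polypeptide (Ppy) made up 26.2% and Sst 7.12% of its UMIs. On the tomato-positive plates the deepest well held 3.53% and 2.55% of the delta UMIs.

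The level of Sst in the chosen wells differed between the sorts. The median delta well spent 7.70% and 7.77% of its UMIs on Sst on the tomato-positive sham and ppx plates. On the tomato-negative plates the medians were 18.5% on the sham plate, 18.5% on ppx2 and 20.3% on ppx3. The mixed sham plate lay between them, at 13.4%. The middle of the distributions did not touch: the upper quartile of the tomato-positive wells was 9.64% and 9.67%, and the lower quartile of the tomato-negative wells was 15.8%, 17.3% and 16.3%. Neither the sham nor the ppx plate of a sort stood apart from its partner.

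The threshold fell in a gap between the Sst shares of wells inside and outside the rule. It was chosen with earlier results of these data known, so the gap is a description and no support for the class. The lowest Sst shares inside the rule were 0.970% and 0.902% on the tomato-positive plates and 8.89%, 2.38% and 0.911% on the tomato-negative ones. Wells just outside it, low in insulin and glucagon too, reached at most 0.475% and 0.421%, and 0.376%, 0.165% and 0.295%. Wells with under 5% Sst numbered 30 and 32 on the tomato-positive plates and 0, 1 and 1 on the tomato-negative plates. Delta wells with more Ppy than Sst numbered 22 and 34 against 0, 1 and 1. Wells too shallow to be kept, under 500 UMIs, had 2.72% and 2.70% of their UMIs from Sst on the tomato-positive plates, above the threshold. On the tomato-negative plates such wells had 0.216%, 0.184% and 0%. Depth, the number of delta wells and the amount of Sst RNA outside them, given below, differed between the same plates. Their part in the level of Sst was not tested.

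**Figure D1:**
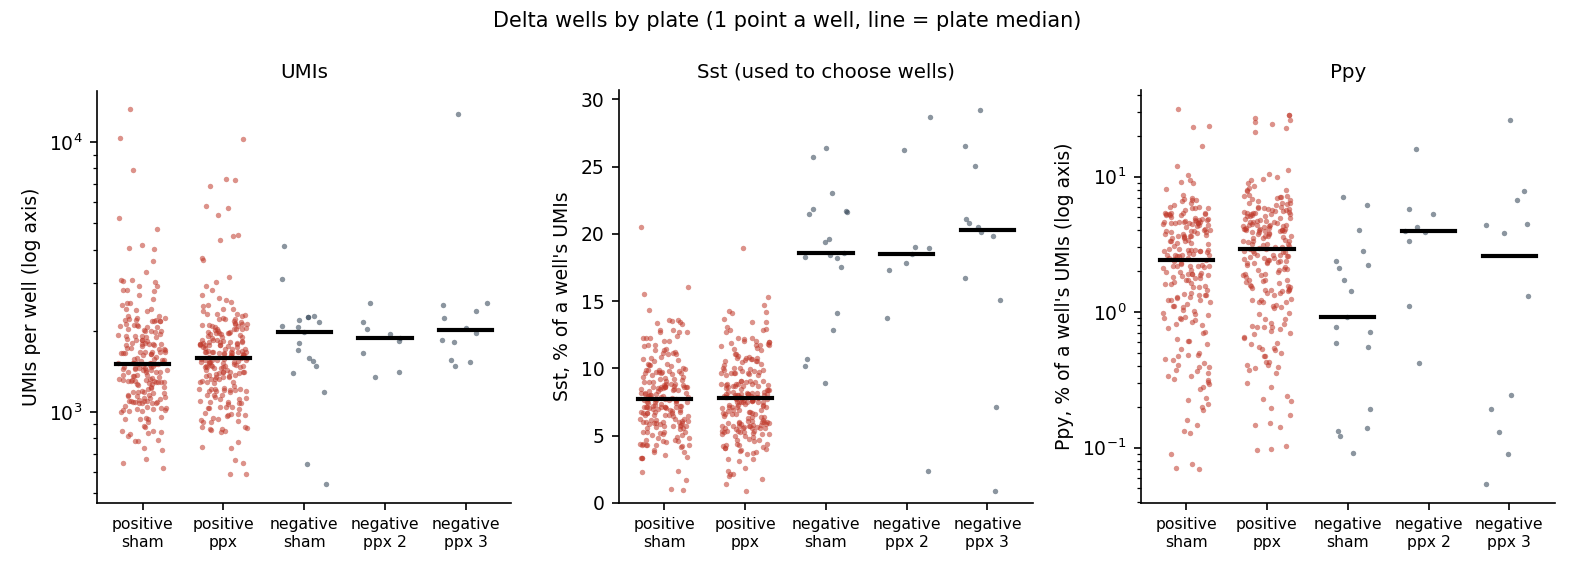
UMIs per delta well, Sst as a share of a well's UMIs and Ppy as a share of a well's UMIs, by plate, with 1 point for each well and a line at the plate median; the UMI and Ppy axes are logarithmic. The medians of Sst are 7.70% and 7.77% on the tomato-positive plates and 18.5%, 18.5% and 20.3% on the tomato-negative plates, while the Ppy shares of both sorts span the same range, and 1 deep well stands alone at 12729 UMIs on ppx3.

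The other delta markers were present in both sorts, and apart from Sst none of the tested ones was called. The 20 listed delta markers without Sst summed to 8642 and 7986 CPM (UMIs of a gene per 1000000 UMIs) on the tomato-positive plates. On the tomato-negative ones they summed to 7810, 6379 and 5920 CPM, without overlap. The main test multiplied the library sizes by 1.21 and 1.13 on the tomato-positive plates. On the tomato-negative plates the factors were 0.994, 0.897 and 0.819. Such scaling lowers the tomato-positive levels against the others, so a separation in CPM need not hold under it. Of 5 tested members besides Sst, 4 had a log2 fold change above 0, with a median of 0.18 beside 0.00 over all genes tested. Rbp4 (chr19:38116629-38125281 of GRCm38) stood at 4552 and 4122 CPM in the tomato-positive sums. It stood at 4702, 3279 and 3898 CPM in the tomato-negative ones. The plates overlapped, and the log2 fold change was -0.10 ± 0.27 (SE; edgeR adjusted p = 0.999). Hhex (chr19:37434810-37440731) stood at 418 and 406 CPM against 302, 298 and 404 CPM. In CPM its tomato-positive plates lay just above the tomato-negative ones. The fold change was 0.08 ± 0.34 (SE) on the log2 scale (edgeR adjusted p = 0.999).

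Thinning each well to 500 UMIs gave the share of delta wells with at least 1 Hhex UMI at 1 depth. It was 23.1% (95% exact Clopper-Pearson interval 17.6 to 29.4) and 17.0% (12.3 to 22.5) on the tomato-positive plates. On the tomato-negative plates it was 15.8% (3.38 to 39.6), 22.2% (2.81 to 60.0) and 25.0% (5.49 to 57.2), and the intervals overlapped. Before thinning the shares were 46.2% and 41.5% against 36.8%, 33.3% and 66.7%. For Rbp4 the thinned shares were 85.8% and 83.5% against 89.5%, 66.7% and 66.7%. These intervals cover counting error only.

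Arg1, the urea cycle enzyme arginase, was among the listed delta markers too. Its level was 506 and 535 CPM in the tomato-positive and 385, 179 and 289 CPM in the tomato-negative delta wells. The plates did not overlap, but the log2 fold change of 0.57 ± 0.34 (SE) did not pass the test (edgeR adjusted p = 0.999). Cd24a, which encodes a small surface protein, overlapped between the sorts, at 1166 and 1238 against 1457, 775 and 837 CPM. The receptor gene Ghsr had 89 UMIs in the tomato-positive and 4 in the tomato-negative sums, or 114 CPM (95% exact Poisson interval 91.7 to 140) and 45.6 CPM (12.4 to 117), and these intervals overlapped. By plate it stood at 117 and 111 against 82.5, 0 and 28.9 CPM, so the tomato-positive plates were the higher ones.

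Sox9 (chr11:112782224-112787760), the gene whose promoter drives the Cre, was close to the limit of detection. The tomato-positive delta wells held 17 Sox9 UMIs of 779557, or 21.8 CPM (95% exact Poisson interval 12.7 to 34.9). The tomato-negative delta wells held 0 of 87768, which allows up to 34.2 CPM. A difference between the sorts was therefore not detectable at this depth. Of 20 listed duct and Sox9-lineage genes, 5 were at 0 in the delta wells of all 5 plates, among them the duct keratin Krt19 and the chloride channel Cftr. The summed level of the list was 3751 and 3778 CPM against 3850, 3637 and 3148 CPM. Of its members, 5 were abundant enough to test and none passed. The adhesion gene Epcam, for example, stood at 362 and 433 against 522, 238 and 491 CPM, and the sodium pump subunit Atp1b1 at 737 and 572 against 770, 894 and 549 CPM.

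Ghrelin transcripts were found in delta wells of the tomato-positive plates and not in those of the tomato-negative plates. Ghrl (chr6:113716119-113719880) had 47 and 193 UMIs in the 2 tomato-positive sums, or 125 and 478 CPM. It had 0 of 87768 UMIs over the 3 tomato-negative sums, which allows up to 34.2 CPM. Pooled over the tomato-positive plates the level was 308 CPM (95% exact Poisson interval 270 to 349), or 9.01 times that limit of 3 UMIs taken over the group. That interval covers counting error only, and neither plate's own level lay inside it. Most of these UMIs came from the ppx plate. Without it, the sham plate alone stood at 3.66 times the limit, and without the sham plate the ppx plate stood at 14.0 times the limit.

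The same transcripts were spread over the rest of the tomato-positive plates. In insulin-only wells (insulin genes at or over 3.3%, Sst and Gcg under their thresholds) Ghrl stood at 91.4 and 353 CPM, that is at 73.1% and 73.9% of its level in the delta wells beside them. The insulin-only wells of the tomato-negative plates had 0 of 3414862 UMIs. Ghrelin-rich wells were rare: 1 well of the tomato-positive sham plate and 2 wells of the tomato-positive ppx plate had over 10% Ghrl, with a highest share of 32.8% and 39.8%. No other well of those plates passed 0.323% and 0.520%, and no kept well of the tomato-negative or the mixed plate had a Ghrl UMI. These plate-wide levels stand beside the level in delta wells, and their part in it was not tested. Thinned to 500 UMIs, 4.72% and 22.8% of the tomato-positive delta wells had a Ghrl UMI, against 0 of 24 insulin-only wells, which allows a share of up to 12.5%, and 3 of 20. The insulin-only wells were deeper before they were thinned, with a median of 5397 and 4528.5 UMIs against 1504.5 and 1591.5 in the delta wells. On the tomato-negative plates the median insulin-only well had 4817, 3848 and 3996.5 UMIs, so in this class the depth of the sorts overlapped.

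Hormone and marker RNA in wells of the other class was then measured in both directions. Delta transcripts in insulin-only wells were higher on the tomato-positive plates, where delta wells were many. Rbp4 stood at 352 and 471 CPM in the insulin-only wells of the tomato-positive plates and at 25.0, 17.2 and 8.91 CPM in those of the tomato-negative plates. Relative to the delta wells of the same plate this was 7.72% and 11.4% against 0.532%, 0.524% and 0.228%. The plates did not overlap.

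Wells with too little RNA to pass the filter showed the same order. Those under 500 UMIs, 14 and 7 wells on the tomato-positive plates, had 2.72% and 2.70% of their UMIs from Sst. On the tomato-negative plates 35, 12 and 7 such wells had 0.216%, 0.184% and 0%. In insulin-only wells, held under 0.73% Sst by the rule, the median Sst share was 0.146% and 0.149% against 0.0299%, 0.0218% and 0.0187%.

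Insulin transcripts in delta wells were low on every plate, and the 2 genes differed in their order. Ins1, the first of the mouse insulin genes, stood at 2540 and 2872 CPM in the tomato-positive and at 3850, 3458 and 2974 CPM in the tomato-negative delta wells, without overlap. That was 1.81% and 2.56% of its level in the insulin-only wells of the same plate, against 2.58%, 3.18% and 2.40%. Ins2, the other insulin gene, stood at 1970 and 4523 against 3052, 1669 and 866 CPM, and overlapped between the sorts. Relative to the insulin-only wells of the same plate it did not overlap, at 1.74% and 2.46% against 2.92%, 3.56% and 3.93%.

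The ratio of the 2 insulin genes differed between plates in both classes of well. Ins2 divided by Ins1 was 0.807 and 1.64 in the insulin-only wells of the tomato-positive sham and ppx plates, and 0.776 and 1.58 in their delta wells. On the tomato-negative plates the ratio was 0.700, 0.431 and 0.177 in insulin-only wells and 0.793, 0.483 and 0.291 in delta wells. It was thus lower in delta than in insulin-only wells on both tomato-positive plates and higher on the 3 tomato-negative ones, most of all on ppx3. The order of the 5 plates was the same in both classes but for the sham plates, whose values lay close together. 

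**Figure D2:**
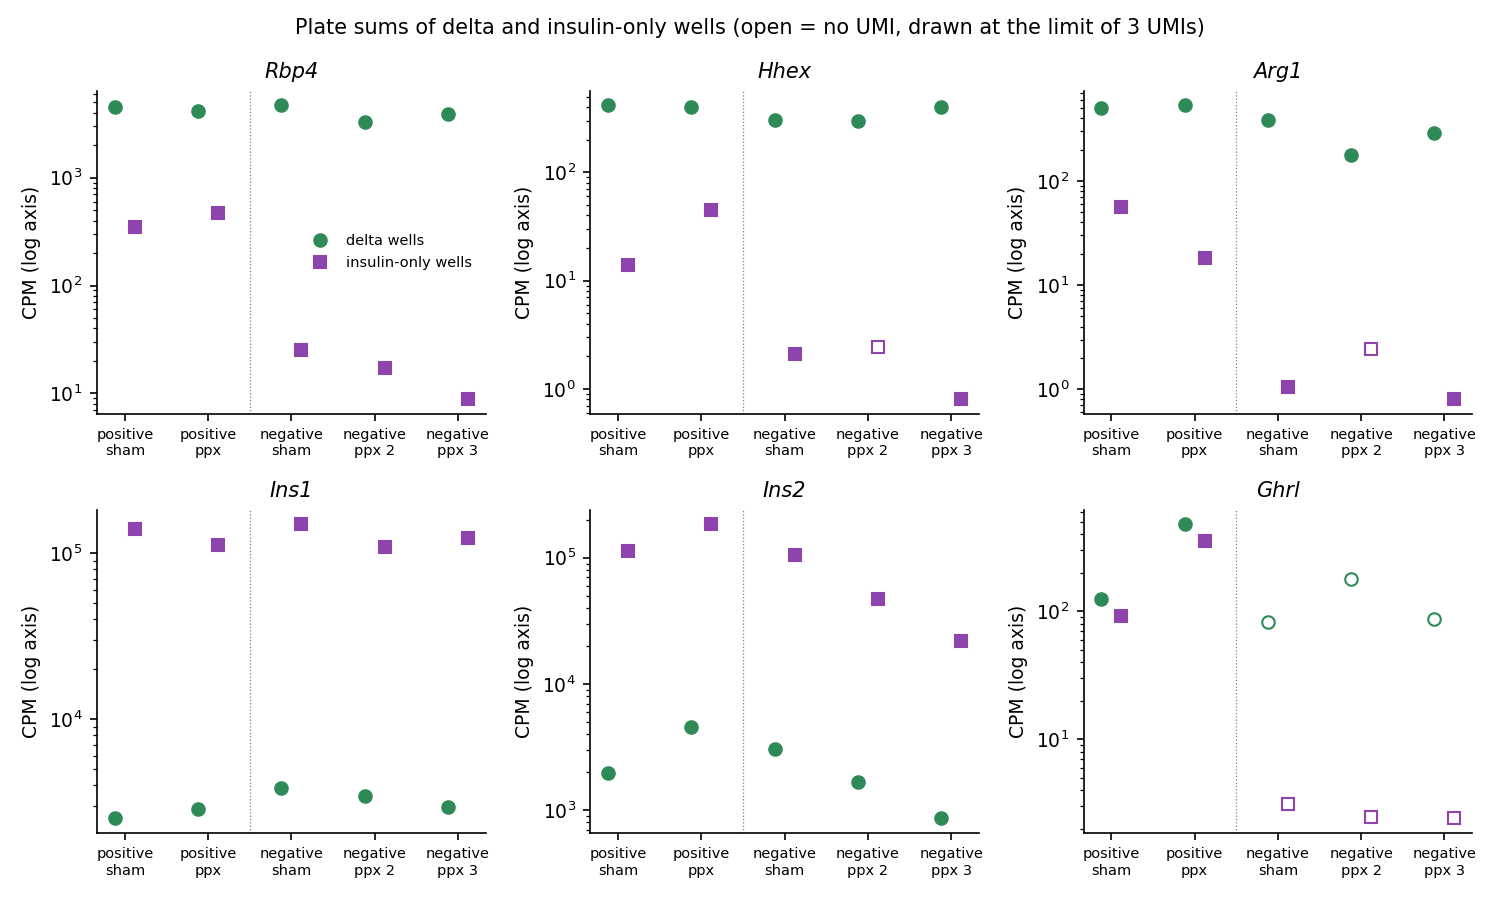
Level of 6 genes in CPM on logarithmic axes, summed over the delta wells (circles) and the insulin-only wells (squares) of each plate; an open symbol marks a sum without a UMI, drawn at the limit of 3 UMIs. Rbp4 and Hhex are near the same height in the delta wells of all 5 plates, while Arg1 runs from 179 to 535 CPM there. Rbp4, Hhex and Arg1 are higher in the insulin-only wells of the 2 tomato-positive plates than of the tomato-negative ones. Ghrl is near the same height in both classes of a tomato-positive plate.

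Apart from Ins1 and the epsilon markers, the marker levels of other islet and non-islet cells below overlapped between the sorts in the delta wells. The 5 epsilon markers, Ghrl among them, summed to 189 and 584 against 55.0, 0 and 57.8 CPM, without overlap. Gcg stood at 3618 and 2253 CPM against 2585, 2504 and 116 CPM. The other 14 of the 15 alpha markers summed to 5223 and 4615 against 4372, 3637 and 4938 CPM. The beta markers other than insulin summed to 17640 and 15970 against 17215, 14427 and 14929 CPM, most of it from Iapp, which encodes islet amyloid polypeptide, a product of delta cells too. Iapp itself stood at 16724 and 15042 against 16115, 13175 and 13688 CPM. Ttr, the thyroxine carrier found in alpha and other islet cells, overlapped between the sorts, at 753 and 537 against 495, 537 and 635 CPM.

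Acinar markers, digestive enzymes of the exocrine pancreas, summed to 194 and 354 against 110, 477 and 202 CPM, and 10 of the 18 were at 0 in all 5 sums. Endothelial markers summed to 31.9 and 64.4 against 110, 0 and 0 CPM, with 6 of 10 at 0, Cdh5 among them. Stromal markers summed to 10.6 and 39.6 against 27.5, 0 and 0 CPM, with 3 of 10 at 0. Macrophage and lymphocyte markers summed to 82.5 and 94.1 against 165, 0 and 28.9 CPM, with 3 of 12 at 0, including the leukocyte gene Ptprc. None of these 4 sums separated the sorts.

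Pancreatic polypeptide transcripts were abundant in delta wells of both sorts. Ppy (chr11:102099930-102101319), the hormone gene of the gamma or PP cell, stood at 46049 and 60373 CPM in the tomato-positive sums. In the tomato-negative sums it was 19030 on the sham plate, 54191 on ppx2 and 114612 on ppx3, so the sorts overlapped. The deepest well of ppx3 gave 83.9% of that plate's Ppy UMIs. Per well the median Ppy share was 2.44% and 2.93% against 0.926%, 3.97% and 2.58%. The edgeR log2 fold change was 0.10 ± 0.26 (SE, adjusted p = 0.999).

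Pyy (chr11:102106676-102107832), which lies 5.357 kb from Ppy and encodes peptide YY, a relative of the same family, stood at 28505 and 28940 against 23512, 46381 and 40774 CPM. Its log2 fold change was -0.39 ± 0.22 (SE; edgeR adjusted p = 0.999).

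Delta wells were then divided by their Ppy share, a division chosen after the values were seen and described without a test. Wells under 1% Ppy were 53 and 46 on the tomato-positive plates and 10, 1 and 5 on the tomato-negative plates. Wells of 15% Ppy or more were 4 and 8 against 0, 1 and 1. Rbp4 was lower in these Ppy-rich wells than in wells under 1% Ppy, but not absent. It stood at 1750 and 964 CPM on the tomato-positive plates, 1979 on ppx2 and 1650 on ppx3. Under 1% Ppy it stood at 5425 and 3792 CPM, 3641 on ppx2 and 3680 on ppx3. Hhex had 1 and 9 UMIs in the Ppy-rich wells of the tomato-positive plates, or 35.7 and 177 CPM. It had 0 on ppx2 and ppx3, each from 1 well, of 2526 and 12729 UMIs. Sst was lower in them than in the other wells, at 16790 and 25171 CPM on the tomato-positive plates, 23753 on ppx2 and 71176 on ppx3. In wells under 1% Ppy it was 93152 and 90062 CPM against 213763, 185073 and 189868 CPM.

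Across all genes the sorts differed in very few transcripts. Of 388 genes with enough UMIs to test with operation as a covariate, 2 were called, both lower on the tomato-positive plates (0.515%; edgeR quasi-likelihood test, Benjamini-Hochberg adjusted p under 0.05). One was Sst, which chose the wells and gets no test. The other was E130111B04Rik. No gene was called higher. Before adjustment, 5 genes were higher and 7 lower at a p under 0.05, and DESeq2 called 0 higher and only Sst lower, with 0 higher and 4 lower at an unadjusted p under 0.05. Leaving out the genes of the rule, the median log2 fold change of the other 384 was 0.00, with 194 above 0, and their median standard error was 0.34.

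The scaling matters to the direction of single genes. The main test, with TMM normalisation, split the genes into 196 higher and 192 lower. With library totals alone the split was 331 higher and 57 lower, and the median of all genes moved by 0.36. Levels in CPM are shares of all UMIs and carry this shift. So does each statement here on whether the plates overlapped in CPM. Being apart in CPM is not particular to the genes named below. Tested genes with fold changes near 0 were apart too, such as Gnas (log2 fold change 0.03), Hnrnpa2b1 (0.03) and Chgb (0.04). The share of all tested genes that were apart is not given here.

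E130111B04Rik (chr11:102030268-102035084, minus strand), annotated as an antisense non-coding RNA, lies between Mpp3, 1.807 kb away, and Ppy, 64.846 kb away. It stood at 303 and 592 CPM in the tomato-positive delta wells. In the tomato-negative ones it was 220 CPM on the sham plate, 3637 on ppx2 and 2917 on ppx3. Both ppx plates were high and the sham plate was the lowest of the 5, so the sorts overlapped. The log2 fold change was -1.74 ± 0.42 (SE), with an edgeR adjusted p of 0.0209. Without the tomato-positive ppx plate it was 0.38, and without ppx3 it was -1.38 (edgeR adjusted p = 0.157). DESeq2 did not call it (adjusted p = 0.998).

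The transcript was highest in Ppy-rich wells. On ppx3, 88 of its 101 UMIs came from the deepest well. By Ppy share, its level in the tomato-positive sham wells was 25.4 CPM under 1%, 174 at 1 to 5%, 454 at 5 to 15% and 1715 at 15% or more. The tomato-positive ppx wells gave 52.7, 291, 542 and 2635 CPM over the same bands. On the tomato-negative sham plate the first 3 bands gave 0, 340 and 768 CPM. On ppx2 the bands gave 607 (1 UMI), 3009, 4250 and 7126 CPM, and on ppx3 0, 386, 2040 and 6913 CPM. The level was higher in each next band on the 5 plates compared, as far as they had wells in it. From 1% Ppy upwards the ppx2 and ppx3 wells lay above the tomato-positive ones of the same band. The tomato-negative sham wells did so too at 1 to 5% and 5 to 15%, from 4 UMIs in each band.

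Wells outside the delta class showed this difference too. Those with at least 10% Ppy, 7 and 11 on the tomato-positive and 14, 27 and 16 on the tomato-negative plates, had 1564 and 2524 against 5201, 17268 and 10100 CPM of E130111B04Rik, without overlap. The neighbour Mpp3, picked after its values were seen, was scarce in delta wells, at 26.6 and 24.8 against 55.0, 656 and 0 CPM. Without wells over 10000 UMIs the log2 fold change of E130111B04Rik was -1.49 (edgeR adjusted p = 0.998), and without wells of at least 15% Ppy it was -1.94 (edgeR adjusted p = 0.995). Both settings were chosen after seeing the data. The strand setting of the authors' counting is not given in the sources used here, so reads of an overlapping gene on the other strand cannot be told apart.

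**Figure D3:**
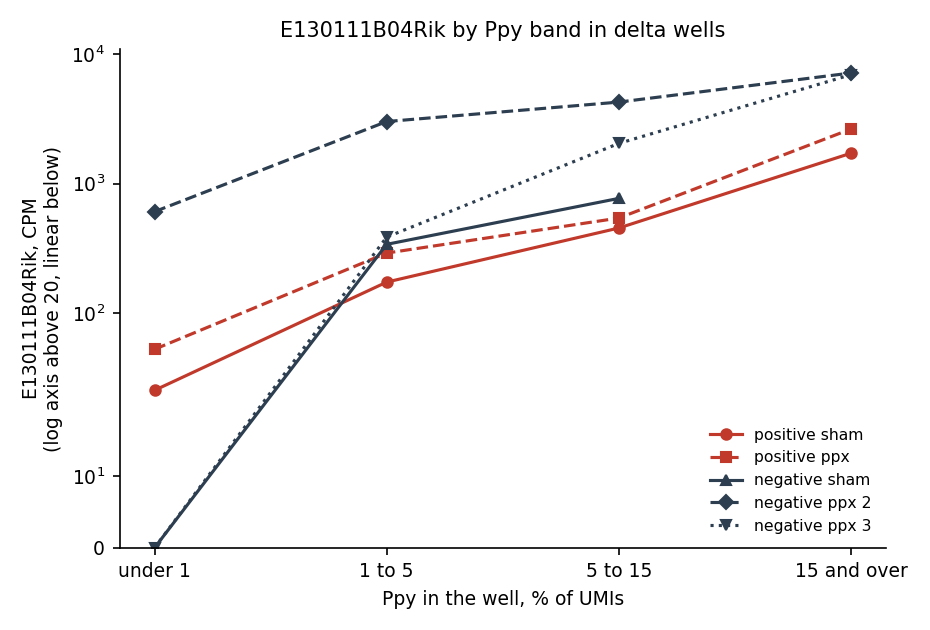
Level of E130111B04Rik in CPM (logarithmic above 20 and linear below) in delta wells grouped by their Ppy share, with 1 line for each plate; the tomato-negative sham plate has no well in the last band. The lines are higher in each next band on all 5 plates, from 25.4 to 1715 CPM on the tomato-positive sham plate for example, and ppx2 and ppx3 end highest, at 7126 and 6913 CPM.

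The genes next in line did not pass the test and are given as values. Rpl13, a protein of the large ribosomal subunit, stood at 333 and 275 CPM in tomato-positive and 467, 596 and 491 CPM in tomato-negative delta wells. Its log2 fold change was -0.94 ± 0.32 (SE; edgeR adjusted p = 0.588), the smallest adjusted p among the genes not called. Rpl22, of the same subunit, stood at 551 and 525 against 825, 715 and 578 CPM. Cdc42, a small GTPase of the cytoskeleton, stood at 269 and 248 against 275, 656 and 462 CPM. Gpx1, a glutathione peroxidase, stood at 296 and 344 against 495, 537 and 433 CPM. None of these 4 genes overlapped between the sorts in CPM, and the same held for some tested genes with fold changes near 0. Rpl13 and Cdc42 passed the filter on low counts only with the tomato-negative plates, so being apart is no result for them.

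The stress-induced transcription factor Atf3 did overlap, at 216 and 292 against 165, 59.6 and 1040 CPM. Of its 36 UMIs on ppx3, 28 came from the deepest well.

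In the other direction Cplx2, which encodes complexin 2, a regulator of vesicle fusion, stood at 591 and 406 against 220, 238 and 289 CPM (log2 fold change 0.75 ± 0.36 SE; edgeR adjusted p = 0.999). Akr1a1, an aldehyde reductase, stood at 530 and 512 against 412, 119 and 202 CPM. Saraf, a regulator of store-operated calcium entry, stood at 338 and 322 against 192, 119 and 116 CPM. Hadh, an enzyme of fatty acid oxidation that restrains insulin release in beta cells, stood at 703 and 629 against 357, 238 and 462 CPM. Ctnnb1, which encodes beta-catenin, stood at 375 and 324 against 247, 119 and 116 CPM. The plates of these 5 genes were apart in CPM, as were those of other tested genes, and the 5 had an adjusted p of 0.999 each in edgeR. On the tomato-negative plates Saraf had 7, 2 and 4 UMIs and Ctnnb1 had 9, 2 and 4. All of the 5 but Hadh passed the filter on low counts only with the tomato-positive plates, so being apart is no result for them.

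The snoRNA Snord73a stood at 599 and 691 against 412, 298 and 318 CPM. Gm29216 and Gm28437, both annotated as pseudogenes on chromosome 1, had log2 fold changes of 0.94 and 0.84. Gm29216 stood at 426 and 512 against 192, 179 and 260 CPM. With 7, 3 and 9 UMIs on the tomato-negative plates, it passed the filter on low counts only through the tomato-positive ones, so its order is no result. Gm28437 overlapped between the sorts, at 1749 and 621 against 1402, 119 and 116 CPM. Both pseudogenes are near-copies of mitochondrial genes, and reads shared with those genes make their counts uncertain. Fam159b, a listed delta marker, stood at 993 and 1067 against 687, 775 and 404 CPM (edgeR adjusted p = 0.999).

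**Figure D4:**
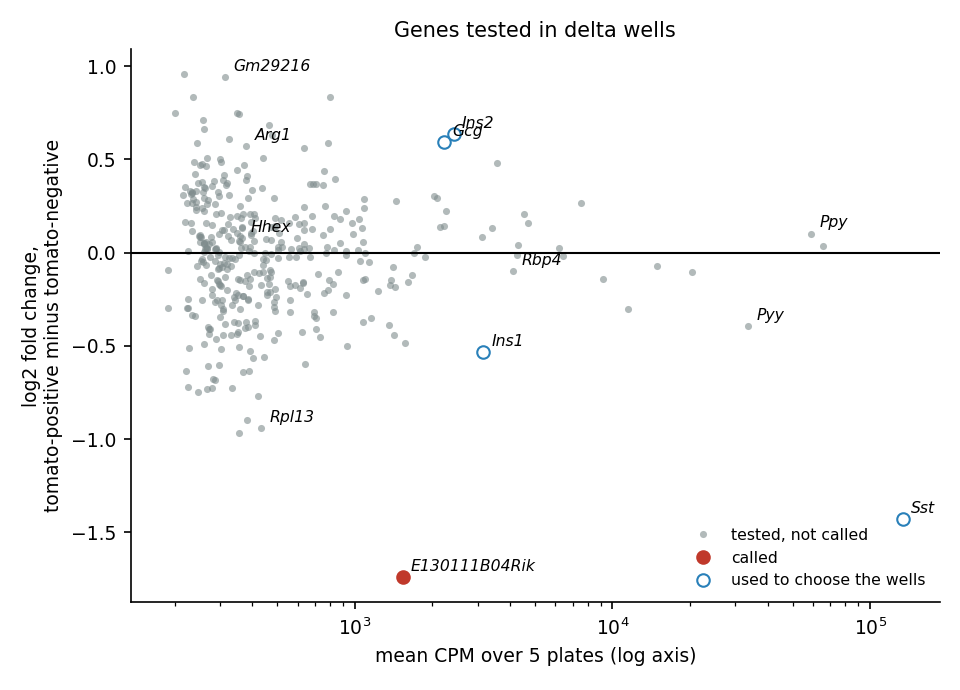
Log2 fold change of each of the 388 tested genes, tomato-positive minus tomato-negative delta wells, against its mean level over 5 plates in CPM on a logarithmic axis. Genes used to choose the wells are open circles, and the 1 called gene outside them, E130111B04Rik, is at -1.74, apart from the cloud of genes that were not called.

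By function, no list had a called member other than Sst. Of 107 tested members of the lists, without the genes of the rule, edgeR called 0, with 1 higher (Cplx2) and 2 lower (Atf3 and Rpl13) at an unadjusted p under 0.05. DESeq2 called 0 as well, with 1 lower at an unadjusted p under 0.05. The medians below are log2 fold changes, to be read against 0.00 for all genes tested, and only members abundant enough for the test enter them.

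The islet transcription factors had 4 of 17 tested members, a median of 0.10, and none called. Pax6, a regulator of hormone genes, stood at 405 and 369 against 357, 298 and 260 CPM. Insm1, an endocrine factor, stood at 301 and 297 against 220, 238 and 144 CPM. With 8, 4 and 5 UMIs on the tomato-negative plates, Insm1 passed the filter on low counts only through the tomato-positive ones, so its order is no result. For the granins and prohormone processing genes, which build and fill secretory granules, 13 of 18 were tested, 8 lay above 0 and the median was 0.13. Chromogranin A (Chga) stood at 4747 and 4139 against 2117, 3517 and 3263 CPM, and Chgb, its relative, at 4664 and 4723 against 4180, 4412 and 3465 CPM. Scg5, a chaperone of the convertase PC2, stood at 1235 and 1265 against 1375, 1312 and 1617 CPM. Exocytosis and excitability genes had 7 of 20 tested and a median of -0.13. No member of the list of delta receptors and signals was abundant enough to test, and its 20 genes summed to 769 and 772 against 522, 715 and 606 CPM.

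Immediate early and heat shock genes, which respond to dissociation, had 14 of 20 tested and a median of 0.09. Their sum was 12758 and 14804 against 9735, 10075 and 16344 CPM, and overlapped. Genes of endoplasmic reticulum stress had 14 of 24 tested and a median of -0.13. Oxidative phosphorylation genes had 13 of 30 tested and a median of -0.08, and mitochondrially encoded genes had 8 of 15 tested and a median of 0.01. Among the latter, mt-Cytb stood at 8847 and 9157 against 6655, 6677 and 6411 CPM, with a log2 fold change of 0.27 ± 0.25 (SE; edgeR adjusted p = 0.999). Ribosomal protein genes had 16 of 30 tested, 6 of them above 0, and a median of -0.17.

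Few genes of an immature or a cycling state were abundant enough to test. Of 16 listed genes of immaturity, disallowed genes and dedifferentiation, 6 were at 0 in all 5 sums and 2 were tested. Of 16 proliferation genes, 5 were at 0 in all 5 sums, including Mki67 and Top2a, the marks of dividing cells. Mki67 had 0 of 779557 UMIs in tomato-positive delta wells, which allows up to 3.85 CPM, and 0 of 87768 in tomato-negative ones. The cyclin gene Ccnd2, the one member tested, stood at 1307 and 963 against 962, 835 and 866 CPM.

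The last comparison asked whether the sorts differed more in delta wells than in insulin-only wells of the same plates. The interaction of well class and tomato status was tested with plate as a block, over 476 delta and 823 insulin-only wells. Of 5532 genes, 5 were called (0.0904%; edgeR adjusted p under 0.05), all of them more negative in delta wells: Sst, Rbp4, Arg1, Hhex and Pyy. Sst set both well classes, so its call follows from the rule and is no result. Without the genes of the rule, 4 of 5528 were called. No gene was called in the other direction, where 120 had an unadjusted p under 0.05 and DESeq2 called 0. DESeq2 called 4 of the 5, all but Pyy. The median over all genes was 0.06.

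For the delta markers the difference lay in the insulin-only wells. The interaction of Rbp4 was -4.80 ± 0.33 (SE, log2; edgeR adjusted p = 3.37e-44), with the near-equal delta levels and the unequal insulin-only levels given above. Hhex stood at 14.1 and 45.3 CPM in the insulin-only wells of the tomato-positive plates and at 2.09, 0 and 0.810 CPM in the others, for an interaction of -4.64 ± 1.03 (edgeR adjusted p = 0.00766). In insulin-only wells these were 7 UMIs of 252617 against 3 of 3414862. Arg1 (chr10:24915221-24927484) stood at 56.3 and 18.1 against 1.04, 0 and 0.810 CPM there, for an interaction of -4.94 ± 0.95 (edgeR adjusted p = 0.000298), from 10 and 2 UMIs.

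These calls rest on delta transcripts at low levels in wells of another class. Where those transcripts came from was not tested. Without the tomato-positive sham plate Arg1 and Hhex were not called (edgeR adjusted p = 1 and 0.0802), and without the tomato-positive ppx plate Hhex was not (edgeR adjusted p = 1). Without ppx3 Hhex was not called either (edgeR adjusted p = 0.112). Rbp4 was called with any 1 of the 5 plates left out. It missed the threshold when each well was thinned to 500 UMIs (edgeR adjusted p = 0.262).

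For Pyy the order of the sorts in insulin-only wells was clear. In insulin-only wells it stood at 1723 and 1530 CPM on tomato-positive and 861, 1227 and 526 CPM on tomato-negative plates, without overlap, against the delta levels given above. The interaction was -1.63 ± 0.29 (SE, log2; edgeR adjusted p = 4.89e-05). It was not called by DESeq2 (adjusted p = 1.00), nor in edgeR without ppx3 (adjusted p = 0.146), without the tomato-positive sham plate (adjusted p = 0.551) or without the tomato-positive ppx plate (adjusted p = 0.125). Ppy, beside it on the chromosome, had an interaction of -1.17 ± 0.30 (SE) and was not called (edgeR adjusted p = 0.0806).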

How the data were processed

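Islet wells on 6 plates were profiled by MARS-seq. The authors deposited UMI counts per gene and well, not normalised; alignment with HISAT 0.1.6 to mm10 is named per the submitters' processing notes (counter and annotation not given in the sources used here). These tables held 52542 gene rows and 92 ERCC rows with 3 UMIs in all, which were dropped. Wells with at least 500 UMIs and at most 20% mitochondrial UMIs were kept. No doublet caller was run. Counts were summed per plate and well class and tested with edgeR 4.0.16 in R 4.3.3 (TMM, filterByExpr, quasi-likelihood F test, operation as covariate); DESeq2 1.42.0 was the second tool. Standard errors came from the F statistic. Simulated data showed that TMM factors over all genes shifted the interaction, so its factors were taken from genes with at least 5 expected UMIs in the smallest sum. Shares and depths were tested by exact permutation over plates (Python 3.11.15). Intervals came from scipy 1.17.1 and cover counting error only, not the spread between plates. Same-group sums differed by more than sampling noise (chi-square per degree of freedom 3.07 to 39.7). Named genes were the well markers, called genes, the next 10 per direction by unadjusted p, and up to 2 members per list; a few of them are not printed. Mpp3, Ghsr, Cd24a and Arg1 were also named after their values were seen. Positions are from GENCODE M21 on GRCm38 (mm10). The wells, gene lists and rules were chosen with earlier results of these data known.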

Additional observations from a re-analysis of the deposited data

Results flagged for a closer look

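The tomato contrast differed between delta and insulin-only wells of the same plates, by the interaction test in edgeR, for 4 genes that did not choose the wells. On the log2 scale the difference was -4.94 for Arg1, -4.80 for Rbp4, -4.64 for Hhex and -1.63 for Pyy. Under the alternatives it ran from -5.51 to -2.32 for Arg1, called in 13 of 17, and from -5.56 to -0.50 for Hhex, called in 11 of 17. For Rbp4 it ran from -5.13 to -3.13, called in 16 of 17, and for Pyy from -2.05 to -0.86, called in 8 of 16. Hhex and Arg1 rest on few UMIs in insulin-only wells, 7 against 3 and 10 against 2. In all 4 the insulin-only wells of both tomato-positive plates lay above those of the 3 tomato-negative plates. Sst in wells under 500 UMIs moved with them, at 2.72% and 2.70% of UMIs on the tomato-positive plates and 0.216%, 0.184% and 0% on the tomato-negative plates. Its part in these differences was not tested.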

How the results depend on the processing

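The higher share and the lower depth of tomato-positive delta wells kept their direction under 10 of 10 alternatives each, from 36.9 to 59.7 percentage points and from -0.92 to -0.30 in log2 UMIs; the lowest depth came with at most 10% mitochondrial UMIs, which left 2 delta wells on ppx3. The 2 genes called between the sorts became 0 with at most 10% mitochondrial UMIs. They became 1 with DESeq2, RLE size factors, library totals, no operation covariate, wells thinned to 500 UMIs, wells of at least 1000 UMIs, stricter hormone thresholds, and without wells over 10000 UMIs or of at least 15% Ppy (the last 2 chosen after seeing the data), Sst in each case. Sst chose the wells, so its call is no result, and none of these settings called another gene. The count was 1 without hormone genes (E130111B04Rik) and without the low-count filter (Ghrl). Leaving out 1 plate let more genes through the filter, with 541 to 3749 tested, and Ghrl was among the calls in some of these fits. The main test had left Ghrl out as too scarce. It had 0 UMIs in the tomato-negative delta sums and entered only through the tomato-positive ones, so its calls are no result. Its level in insulin-only wells of the tomato-positive plates was 73.1% and 73.9% of that in delta wells. E130111B04Rik was called under 5 of 17 alternatives, 1 of which removed no plate since none had under 5 delta wells. Without 1 plate its log2 fold change ran from -2.58 to 0.38 and that of Ins2 from -0.72 to 1.97, with both reversals without the tomato-positive ppx plate. The interaction's 5 calls became 2 with at most 10% mitochondrial UMIs, 3 with thinning, stricter thresholds or no hormone genes, and 2 to 8 without 1 plate. Library totals moved its median by 0.39 and TMM factors over all genes, added after seeing the data, by 0.34, with 4 calls each. The cause of these changes was not tested. The 40 tomato-negative delta wells limit every gene test.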

Other observations

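The mixed sham plate, which entered no comparison, held 64 delta wells among 353 kept wells (18.1%), with a median of 1685 UMIs. Its delta sum had 131477 CPM of Sst, 4816 of Rbp4, 311 of Hhex and 449 of Arg1. Ppy stood at 50202 CPM and E130111B04Rik at 181 CPM. By Ppy share, from under 1% to 15% or more, E130111B04Rik stood at 0, 237, 197 and 281 CPM, so it was not higher in each next band there. It held no Ghrl UMI, and 5 Sox9 UMIs or 43.2 CPM. In its insulin-only wells Rbp4 reached 0.934% of the level in its delta wells.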
